A study of Mus musculus with 9 samples.

Results

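The genes described are the nuclear genes for subunits of the 5 complexes of oxidative phosphorylation. Members were taken by symbol among protein-coding genes: Ndufa, Ndufb, Ndufc, Ndufs or Ndufv followed by a digit for complex I, Sdha to Sdhd for complex II, Cyc1 and symbols beginning with Uqcr for complex III, those beginning with Cox4 to Cox8 for complex IV, and those beginning with Atp5 for complex V. The rule found 86 of the 55421 genes in the table, and 83 of the 86 had enough counts to be tested. Complex I held 37 members, complex II 4, complex III 9, complex IV 18 and complex V 18. The 3 members that were not tested were Cox7b2, with 0 to 0.314 CPM (counts scaled to library size with TMM factors), Cox8c, with no count in any library, and a second Ensembl entry of Atp5o, also with no count. The rule reads only symbols, but the set was chosen with earlier results of these data known.

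RNA was sequenced from hippocampal cells that were dissociated and sorted live for tdTomato, a red fluorescent protein that the mice express in neurons. The 9 libraries fall into 3 groups of 3 mice. Wild-type mice had sham procedures without the impact in the first group and a mild traumatic brain injury (mTBI, by 1 mild controlled cortical impact, CCI) in the second, and the third received this injury on a Tmsb4x conditional knockout, Tmsb4x being the gene for thymosin beta 4. The sources used here name neither the promoter behind tdTomato, the Cre line, the deleted exons, the age or sex of the mice nor the time after injury, and no knockout sham group was analysed, so genotype and injury cannot be separated for the knockout. Library totals ran from 36452443 to 39590872 counts.

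Some checks of the labels bear on every comparison. Tmsb4x stood at 297 to 900 CPM in the wild-type mTBI libraries and at 1.83 to 2.79 CPM in the knockout ones, but the libraries labelled wild-type sham also held only 1.68 to 2.73 CPM. The spread between the libraries labelled sham was far smaller than elsewhere, with a biological coefficient of variation of 3.27% against 19.6% in wild-type mTBI and 18.7% in the knockout. The labels give 3 mice for that group, and whether its libraries are separate animals was not tested. If they are not, the SD of the sham values and every test against them understate the spread between mice. By its Tmsb4x level the group labelled sham cannot be told apart from the knockout, so its wild-type label is in doubt and any difference of wild-type mTBI from it, written as after injury below, may be one of genotype. Wild-type mTBI replicate 1 differed from all other libraries in the relation of its counts to mRNA length over all genes (given below). By Xist (835 CPM) and Ddx3y (0.0498 CPM), wild-type mTBI replicate 3 read as female and the other 8 libraries as male. Sex was thus mixed within the wild-type mTBI group by these transcripts, and its part in the comparisons was not tested. Neuronal markers summed to 9880 to 11898 CPM, and the markers of astrocytes and oligodendrocytes were far above 0 in every library, at 4036 to 5158 and 5017 to 9194 CPM, so transcripts of glial cells were present beside the neuronal ones. Both the lowest neuronal sum, 9880 CPM against 11625 to 11898 in the libraries labelled sham, and the lowest astrocyte sum, 4036 against 5065 to 5158, were those of wild-type mTBI replicate 1. Markers of choroid plexus and ependyma summed to 225 to 226 CPM in the libraries labelled sham and 238 in knockout replicate 1. The other injured libraries held 4065 to 6155 CPM of them. The part of these marker differences in the results was not tested. In such bulk samples, fewer cells of a type and less RNA per cell cannot be told apart.

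As background, the respiratory chain passes electrons from NADH (complex I) and succinate (complex II) through ubiquinone to complex III, then by cytochrome c to complex IV, which reduces oxygen. Complexes I, III and IV pump protons across the inner mitochondrial membrane, and complex V, the ATP synthase, uses their return flow to make ATP. Neurons draw most of their ATP from this pathway. All complexes but II also hold subunits encoded in mitochondrial DNA, so that nuclear and mitochondrial transcripts serve the same machines.

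Subunit transcripts were abundant in every group. Levels between genes are compared per length, as CPM per kilobase of the principal mRNA (the APPRIS principal transcript of GENCODE M21, the longest where several ranked equal), averaged over the 9 libraries. Atp5b, the catalytic beta subunit of the ATP synthase, came first with 478 CPM per kb, followed by Cox4i1, the main form of cytochrome oxidase subunit 4, with 441, Cox8a with 386, Atp5a1, the alpha subunit of the ATP synthase, with 320 and Cox6a1 with 305. The median member stood at 145 CPM per kb in complex IV and 116 in complex V, against 70.2 in complex I, 69.4 in complex II and 86.1 in complex III. Within complex I the highest were Ndufa4, with 251 CPM per kb, and Ndufb10, with 163.5. Ndufa4 carries a complex I name, but its protein is known to belong to complex IV. In complex II, Sdha, the flavoprotein that oxidises succinate, stood at 148 CPM per kb and Sdhb, the iron-sulfur subunit, at 79.0. In complex III the hinge protein gene Uqcrh led with 220 CPM per kb, ahead of Uqcr10 with 197. The order depends on the length used: over the length of all annotated exons Cox8a ranked 1 and Atp5b 6.

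**Figure D1:**
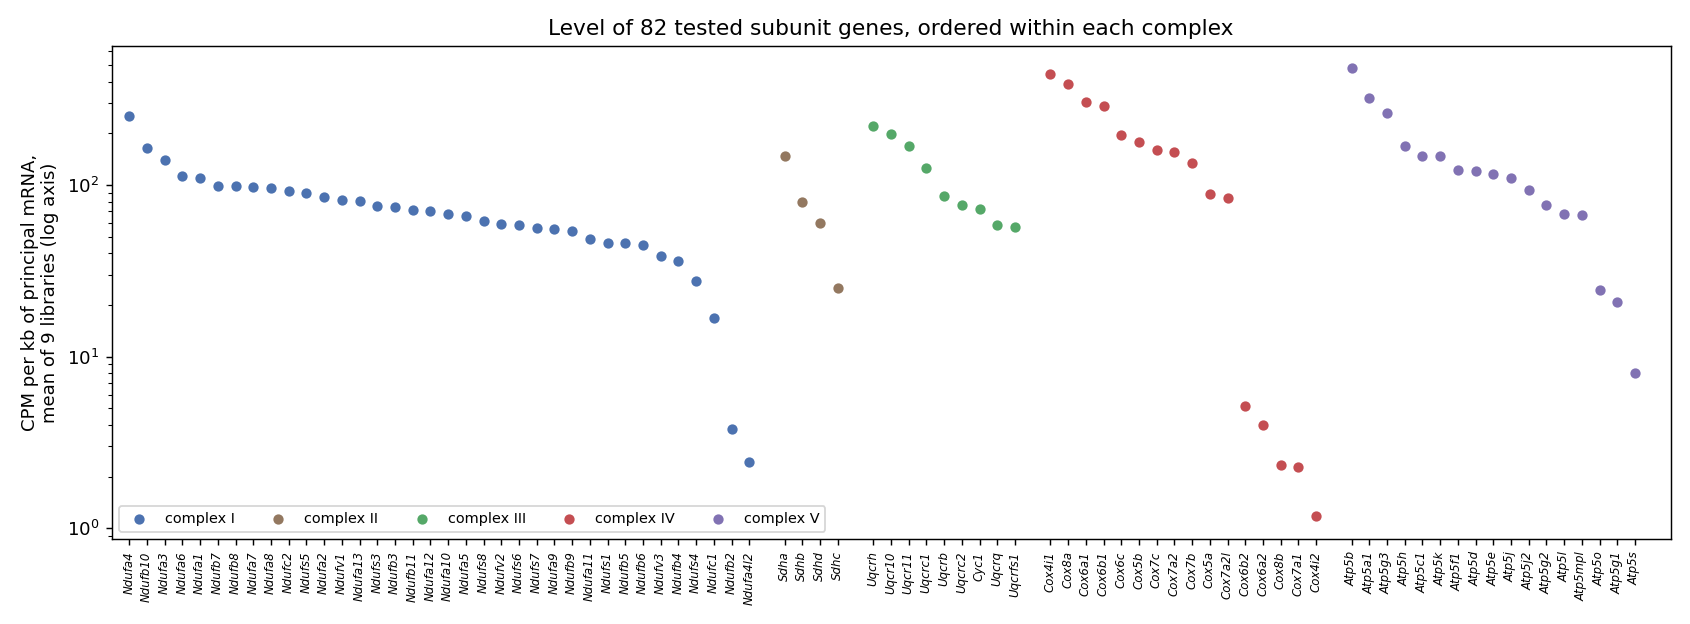
Level of 82 of the 83 tested subunit genes as CPM per kilobase of principal mRNA (log axis, mean of 9 libraries), ordered within complexes I to V. Levels run from 1.17 CPM per kb for Cox4i2 to 478 for Atp5b, and the lowest 8, up to Atp5s with 7.99, also include Ndufb2, Ndufa4l2 and 5 minor isoforms of complex IV. The place of Ndufb2, at 16.5 CPM, rests on a principal mRNA of 4371 bases.

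Several subunits are made from paralogous genes, of which 1 is usually the ubiquitous form and the others are known from muscle, lung or testis. Of the per-length signal, averaged over the 9 libraries, Cox4i1 took 99.7% against the hypoxia-linked Cox4i2, Cox6a1 98.7% against the muscle form Cox6a2, Cox6b1 98.3% against the testis form Cox6b2, Cox8a 99.4% against the muscle form Cox8b, and Ndufa4 99.03% against Ndufa4l2. In the Cox7a family the liver form Cox7a2 took 64.5%, Cox7a2l, which is known for joining complexes III and IV, 34.6%, and the muscle form Cox7a1 0.904%. The proton-carrying c subunit of the ATP synthase is encoded by 3 genes whose mature proteins are alike, and here Atp5g3 took 72.9%, Atp5g2 21.3% and Atp5g1 5.78% of the per-length signal, with an Atp5g1 principal mRNA of 4715 bases. In CPM not divided by length Atp5g1, at 97.6, stood above Atp5g2, at 55.8, so the order of these genes rests on the lengths used. The Cox6b2 share was 1.10% to 2.70% across the 9 libraries and the Cox8b share 0.0387% to 1.27%. Reads that align equally well to several places were not counted, so a gene with a close copy can read low.

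After the values of the members were seen, their promoters were searched for the letters of known regulators of respiratory genes. RefSeq promoters (GRCm38.p6) matched 67 of the 83 tested members, 2 of them under another symbol, and the 250 bases before the start were searched on both strands. The NRF1 palindrome (the longer run of capitals in the Cox6a1 window printed next) stood before 4 of the 67 members (5.97%), Ndufa11, Cox6a1, Atp5g2 and Atp5k, against 1.6% of the 13266 tested genes with a promoter and 0.782% of all windows of that length in the table. The letters CCGGAAG, bound by GABP (also called NRF2) and other ETS factors, stood before 12 members (17.9%), against 13% of tested genes and 6.91% of all windows. The YY1 letters ATGGCGGC stood before 1 member, Ndufa7 (1.49%, against 1.92% of tested genes and 1.03% of windows), CCAAT before 29 (43.3%, against 39.5% and 33.9%) and TATAAA before 5 (7.46%, against 8.62% and 12.4%). The windows below are shown 5′ to 3′ on the gene's strand and end at the base before the RefSeq start, with capitals marking NRF1 or ETS letters on either strand. Cox6a1 was the 1 member with both, Atp5g2 had NRF1 letters, Sdhd, Uqcrh and Atp5h had ETS letters close to the start, and Cox5b, whose values are given below, had neither:
Cox6a1, chr5:115348959-115349135, minus strand: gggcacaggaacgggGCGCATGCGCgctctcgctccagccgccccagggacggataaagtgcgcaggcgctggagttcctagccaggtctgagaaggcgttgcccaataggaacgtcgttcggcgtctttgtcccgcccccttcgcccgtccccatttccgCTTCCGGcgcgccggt
Atp5g2, chr15:102671048-102671127, minus strand: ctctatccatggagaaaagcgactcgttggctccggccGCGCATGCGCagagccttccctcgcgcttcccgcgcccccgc
Sdhd, chr9:50603850-50603929, minus strand: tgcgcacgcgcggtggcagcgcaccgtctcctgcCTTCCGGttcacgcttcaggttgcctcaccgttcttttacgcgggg
Uqcrh, chr4:116075071-116075150, minus strand: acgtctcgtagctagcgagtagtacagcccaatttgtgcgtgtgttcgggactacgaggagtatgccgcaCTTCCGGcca
Atp5h, chr11:115419920-115419999, minus strand: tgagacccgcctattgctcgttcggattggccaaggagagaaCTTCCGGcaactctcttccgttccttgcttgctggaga
Cox5b, chr1:36691407-36691486, plus strand: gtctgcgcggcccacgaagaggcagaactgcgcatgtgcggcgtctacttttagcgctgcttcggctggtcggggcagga
In Cox6a1 the NRF1 letters began 162 bases before the start and the ETS letters 16 bases before it. Values of members with and without these letters overlapped: in wild-type mTBI replicate 1 the median log2 CPM above sham was 0.61 for the 4 members with NRF1 letters and 0.59 for the 63 without, and 0.63 for the 12 with ETS letters and 0.59 for the 55 without. The counts of that library were also tilted toward short mRNAs over all genes (given below). The part of the promoter letters in its values was not tested. A match is one of letters only and shows no binding. Only the exact letters were searched, so variant forms of a site were not counted. A window without a match, such as that of Cox5b, may still hold such a form, and the counts of members with a site are incomplete.

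The first comparison, wild-type mTBI minus the libraries labelled wild-type sham, asks by its labels whether subunit transcript levels differed after injury. No member was called in wild-type mTBI minus sham (0 of 83 by edgeR's quasi-likelihood test at a Benjamini-Hochberg adjusted p under 0.05, where 0.509% of all 20032 tested genes were called). The direction was nearly uniform all the same: 80 of 83 members were higher after injury (53% of all tested genes were) and 3 lower (47%), with a median log2 fold change of 0.28, against 0.018 over all tested genes. At an unadjusted p under 0.05, 42 members were higher (7.45% of all genes) and 0 lower (5.79%). In 50 of 83 members all 3 injured libraries lay above all 3 labelled sham (12.4% of all genes). The adjusted p of the members ran from 0.0809 to 0.961. DESeq2 called 4 members higher (Cox5b, Cox6a1, Cox6b2 and Cox8b), where 541 of 20032 tested genes were called in either direction. By limma voom with sample quality weights 4 were called (Cox5b, Cox6a1, Cox6b2 and Cox8a), where 722 of 20032 genes were. A fit without a count filter called 9 (Cox5b, Cox6a1, Cox6b2, Cox8b, Cox7c, Atp5j2, Ndufa6, Ndufa13 and Ndufs6), where 676 of 34825 genes were called.

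Most of the size of the difference lay in 1 library. Relative to the mean of the libraries labelled sham, the median member stood 0.59 higher on the log2 CPM scale in wild-type mTBI replicate 1, but 0.099 higher in replicate 2 and 0.078 in replicate 3. The knockout libraries stood at 0.050, -0.00099 and 0.035, and those labelled sham at -0.0083, -0.017 and 0.022. Replicate 1 was the highest of the 9 libraries for 81 of 83 members (27.1% of all genes) and the lowest for 0 (24.7%), with Uqcrc2 and Cox6a2 as the exceptions. Counting members above all 3 libraries labelled sham gave 82 in wild-type mTBI replicate 1 (41.9% of all genes), 62 in replicate 2 (30.9%) and 56 in replicate 3 (35.3%). The same count was 43, 17 and 35 in knockout replicates 1, 2 and 3, where 34.7%, 34.2% and 33.1% of all genes passed it. The counts of all members summed to 1.39 times the sham mean of 8426 CPM in replicate 1, 1.07 times in replicate 2 and 1.05 times in replicate 3, and to 1.04, 0.981 and 1.03 times in the knockout. Without replicate 1 the median log2 change was 0.096, 71 members were on the higher side (50.4% of all genes) and none was called, while at an unadjusted p under 0.05 24 were higher (6.64% of all genes) and 1 lower (5.82%). The count of members with all injured libraries above sham was 50 without replicate 1 as well, where 18.7% of all genes passed that looser condition, and the members' distance from sham in replicates 2 and 3 was much smaller.

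**Figure D2:**
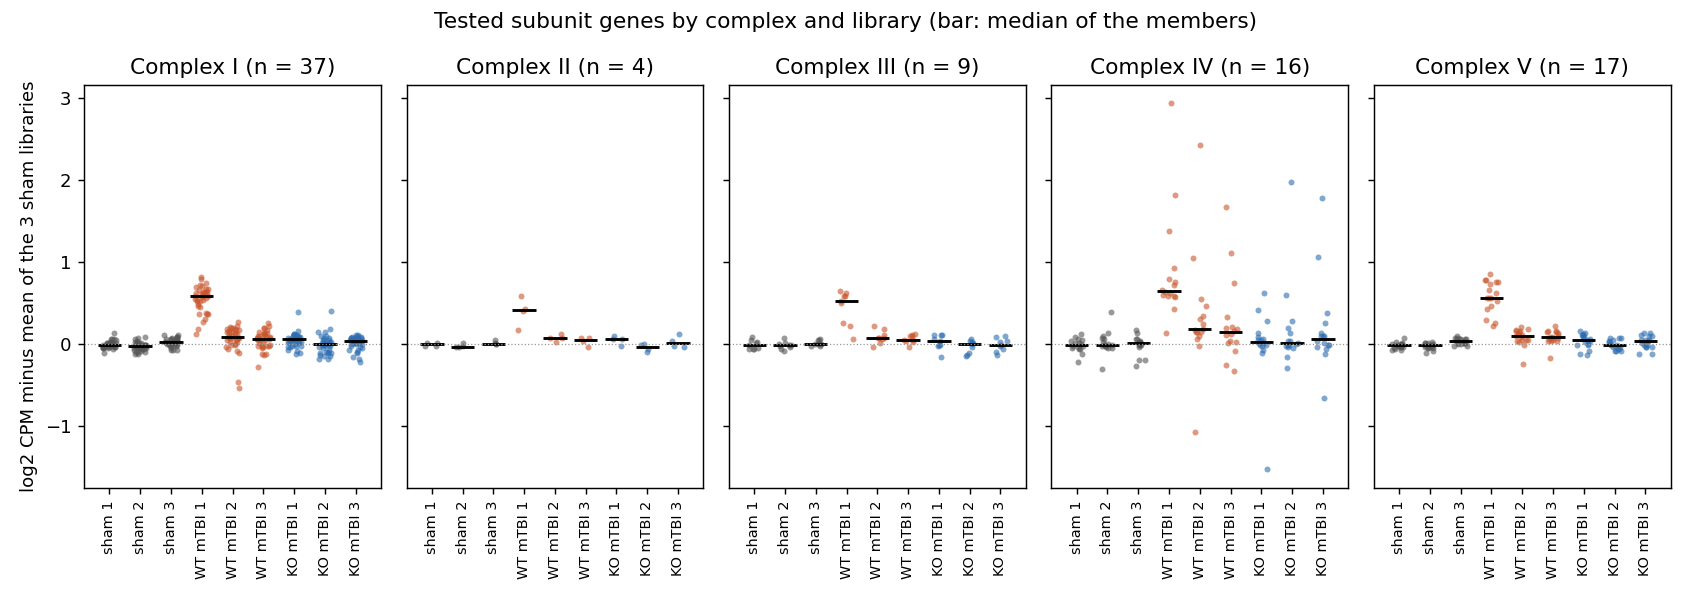
Log2 CPM of each tested member minus the mean of the 3 libraries labelled sham, by complex and library, with a bar at the median. In wild-type mTBI replicate 1 the medians of the 5 complexes lie between 0.41 and 0.65, and in every other library between -0.035 and 0.18.

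Complex I, which oxidises NADH, had a median log2 change of 0.25 after injury, with 36 of 37 members higher and 20 of 37 with the groups apart. The smallest p belonged to Ndufs6, an accessory subunit of the NADH-oxidising arm that carries zinc. It stood at 28.6, 29.0 and 30.8 CPM in the libraries labelled sham, 49.4, 33.1 and 35.3 after wild-type injury, and 30.1, 30.4 and 32.0 in the injured knockout. All 3 wild-type mTBI libraries were thus above the other 6, replicate 1 by far the most, and the log2 change from sham was 0.41 (SE 0.13, adjusted p = 0.219, edgeR). Ndufa6, an accessory subunit of the matrix arm, read 61.2, 56.0 and 58.0 CPM in sham, 101, 67.9 and 66.8 in wild-type mTBI and 63.2, 64.6 and 63.3 in the knockout, a log2 change after injury of 0.43 (SE 0.14, adjusted p = 0.221). Here the knockout libraries also lay above those labelled sham and below the wild-type injured ones. Ndufa13, also known as the cell-death gene GRIM-19, stood at 90.3 ± 5.61 CPM (SD, n = 3) in sham and 118 ± 26.1 after injury, log2 0.39 (SE 0.13, adjusted p = 0.234). The fit without a count filter called Ndufs6, Ndufa6 and Ndufa13, at adjusted p = 0.0439, 0.0199 and 0.0332, which were the lowest of their values over 22 other settings, each of which ran up to 1.

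Core subunits of complex I, among them those that hold its flavin and iron-sulfur clusters, had log2 changes below the complex median of 0.25. For Ndufs3, Ndufs7, Ndufs8 and Ndufv2 the distance from that median was slight. Ndufs1, the largest of them, stood at 123, 118 and 116 CPM in sham and 144, 126 and 115 in wild-type mTBI, so the groups overlapped (log2 0.11, 95% interval -0.09 to 0.31). Ndufv1, which binds NADH and FMN, had log2 0.15. The core members Ndufs3, Ndufs7, Ndufs8 and Ndufv2 had 0.23, 0.23, 0.24 and 0.24. Of these 6 genes, only Ndufs8 had all injured wild-type libraries above sham. Ndufa4l2, the hypoxia-induced paralog of Ndufa4, was the single complex I member on the lower side, at 2.64, 1.66 and 1.99 CPM after injury against 2.30 to 2.56 in sham (log2 -0.21, SE 0.21, adjusted p = 0.684). Single libraries stood apart for 3 members that were picked after their values were seen. Ndufs5 read 43.2 CPM in wild-type mTBI replicate 2 against 57.8 to 92.3 in the other 8 libraries, Ndufb8 read 80.7 CPM in knockout replicate 1 against 56.8 and 64.4 in the other knockout libraries, and Ndufb2 read 20.2 CPM in knockout replicate 2 against 13.5 and 16.0.

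Complex II, the 4-subunit succinate dehydrogenase that also belongs to the tricarboxylic acid cycle, had the smallest median log2 change after injury, 0.18. Sdha, which carries the flavin, stood at 415, 423 and 421 CPM in sham, 475, 443 and 411 in wild-type mTBI and 439, 403 and 433 in the knockout, with all groups overlapping (log2 0.08, 95% interval -0.08 to 0.24, adjusted p = 0.651 by edgeR). Sdhb, with its iron-sulfur clusters, read 84.5, 81.6 and 83.9 CPM in sham and 125, 90.8 and 88.1 in wild-type mTBI, a log2 change of 0.28 (SE 0.12, adjusted p = 0.355). The membrane anchors Sdhc and Sdhd had 0.19 and 0.18. All but Sdha and Sdhd had every injured wild-type library above sham. Without replicate 1, Sdhb had a log2 change of 0.10.

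Complex III, the cytochrome bc1 complex, had a median of 0.22 with all 9 members higher and 4 with the groups apart. Cyc1, cytochrome c1, depended little on replicate 1. It read 103, 105 and 104 CPM in sham, 121, 119 and 113 in wild-type mTBI and 113, 102 and 111 in the knockout. The 3 injured wild-type libraries lay above the other 6, with a log2 change from sham of 0.18 (SE 0.067, adjusted p = 0.290) and 0.16 without replicate 1. The core proteins Uqcrc1 and Uqcrc2 had log2 changes of 0.14 and 0.07, and Uqcrfs1, the Rieske iron-sulfur protein, 0.18. Uqcrc2 was 1 of the 2 members not highest in replicate 1, with 150, 155 and 147 CPM after injury against 140.1 to 144 in sham. The differences were larger for small subunits: Uqcr10 had log2 0.28, with 114, 92.1 and 82.1 CPM in wild-type mTBI against 76.1 to 83.0 in sham, so 1 injured library lay within the sham range. Uqcrq and Uqcr11 had 0.28 and 0.29.

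Complex IV, cytochrome c oxidase, had the largest median of the 5 complexes, 0.35, with 15 of 16 tested members higher and 11 with the groups apart. From largest to smallest median change, the complexes also ran from the shortest to the longest median mRNA (given below). It held the 6 members of smallest p in this comparison. Cox5b (chr1:36691449-36693681 on GRCm38, plus strand), a zinc-binding subunit on the matrix side, stood at 133, 131 and 131 CPM in sham, 217, 167 and 166 in wild-type mTBI, and 161, 130.1 and 158 in the knockout. Every injured wild-type library exceeded every other library, and replicates 2 and 3 did so nearly equally. The log2 change from sham was 0.48 (SE 0.11, adjusted p = 0.0969), and 0.34 (adjusted p = 0.0936) without replicate 1. DESeq2 gave Cox5b an adjusted p of 0.00779 and voom 0.00735, within a range of 0.00177 to 1 over the 22 other settings.

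Cox6a1 (chr5:115345642-115348981, minus strand), the non-muscle form of subunit 6a, read 155, 166 and 155 CPM in sham, 236, 195 and 182 in wild-type mTBI and 164, 154 and 162 in the knockout. All 3 injured wild-type libraries were again above the other 6, and knockout and sham interleaved. The log2 change after injury was 0.37 (SE 0.093, adjusted p = 0.119 by edgeR, 0.0199 by DESeq2 and 0.0186 to 1 over the other settings), and 0.25 (adjusted p = 0.0746) without replicate 1. Cox8a read 198, 195 and 199.9 CPM in sham, 265, 226 and 221 in wild-type mTBI and 207, 199.7 and 197 in the knockout, log2 0.26 (SE 0.078, adjusted p = 0.185, and 0.0426 by voom, the lowest of the other settings). Cox7c, a small membrane subunit, read 74.6, 77.2 and 80.9 CPM in sham, 135, 85.7 and 89.9 in wild-type mTBI and 76.7, 77.4 and 83.4 in the knockout, log2 0.42 (SE 0.14, adjusted p = 0.251 by edgeR, 0.0271 without a count filter and up to 1 in the other settings). In both genes the injured wild-type libraries stood above the other 6. Cox4i1 read 295, 312 and 313 CPM in sham against 463, 340.3 and 349.9 after injury, log2 0.33 (SE 0.11, adjusted p = 0.229). Cox5a, the partner of Cox5b that binds the regulatory end of subunit 4, had replicates 2 and 3 close to sham. It read 56.1, 53.7 and 57.0 CPM in sham and 84.1, 54.8 and 52.5 in wild-type mTBI, with replicates 2 and 3 inside or below the sham range (log2 0.20, 95% interval -0.13 to 0.52).

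The minor isoforms of complex IV gave the largest fold changes of all members, on few counts. Cox6b2, known from testis, read 2.18, 2.2 and 1.78 CPM in sham (68 to 84 counts), 5.39, 3.03 and 4.48 in wild-type mTBI (119 to 210 counts) and 2.17, 3.12 and 2.67 in the knockout. It had the smallest adjusted p of the members, 0.0809, with a log2 change of 1.06 (SE 0.24), and all injured wild-type libraries but replicate 2 exceeded every knockout library. Cox8b, known from muscle and brown fat, read 0.260, 0.276 and 0.209 CPM in sham (8 to 10 counts), 2.23, 1.56 and 0.897 in wild-type mTBI (36 to 87 counts), and 0.0523, 1.13 and 0.976 in the knockout (2, 44 and 38 counts), a log2 change after injury of 2.64 (95% interval 1.04 to 4.24, adjusted p = 0.154). Cox7a1 read 0.419 to 0.689 CPM in sham and 0.897 to 1.95 after wild-type injury, a log2 difference of 1.33 (SE 0.39, adjusted p = 0.180). Cox8b passed the threshold by DESeq2 (adjusted p = 0.0122) and in the fit of only the 6 libraries compared (0.0199), with 0.000652 to 1 over the other settings, and Cox6b2 by DESeq2 (0.00418), with 0.00418 to 1. Cox8b was low in the same 4 libraries as the choroid plexus and ependyma markers, 8 genes that summed to 225 to 226 CPM in the libraries labelled sham, 4394 to 6155 in wild-type mTBI, 238 in knockout replicate 1 and 4975 and 4065 in knockout replicates 2 and 3, with no gene of the list at 0. The part of such cells in the Cox8b values was not tested. Cox6a2, the muscle form of subunit 6a, went the other way, with 3.13, 1.33 and 2.39 CPM after injury against 2.44 to 3.14 in sham (log2 -0.33, SE 0.27, adjusted p = 0.622).

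**Figure D3:**
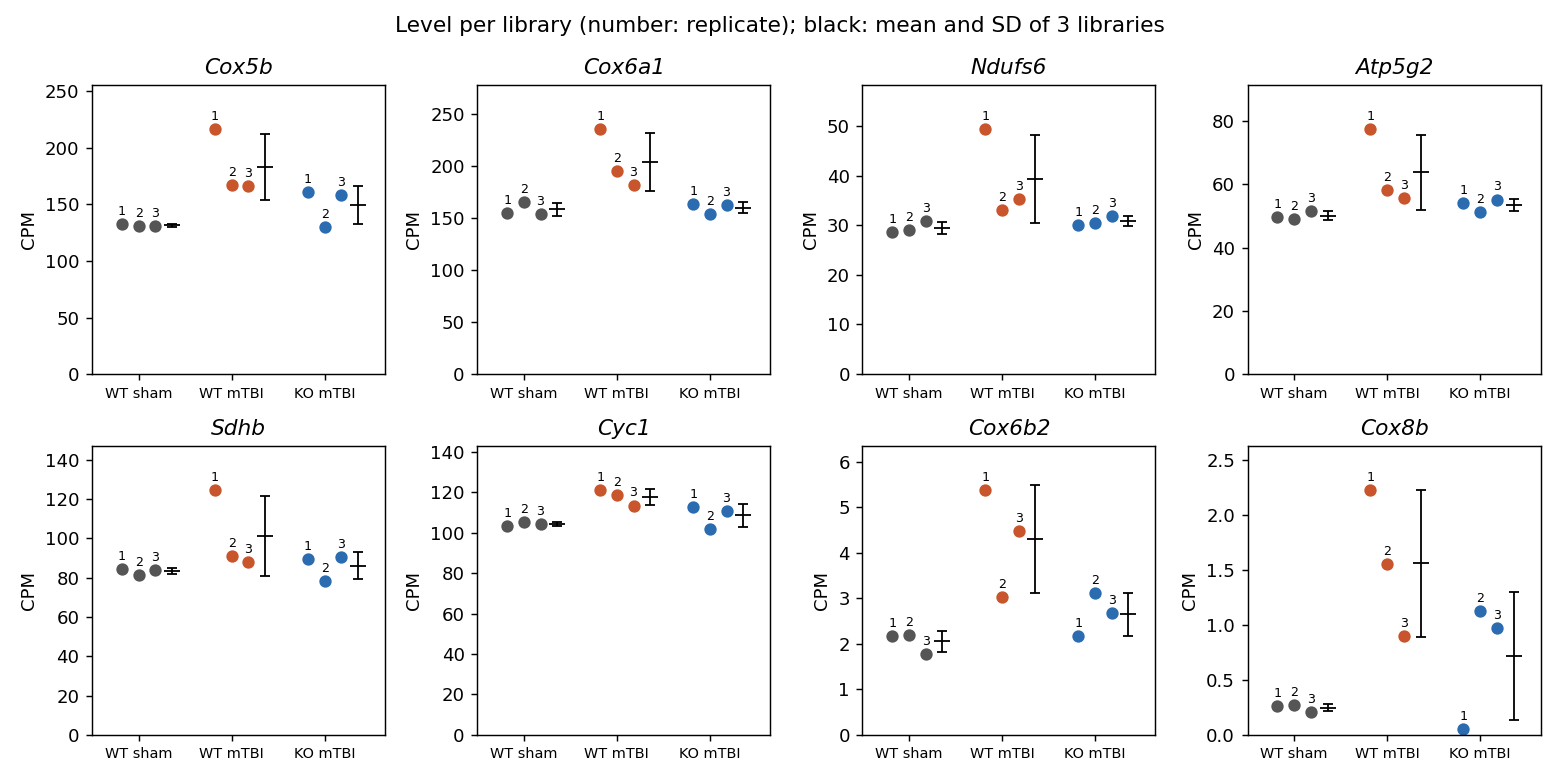
CPM of 8 members in each library, with the replicate number above each point and the mean and SD of 3 libraries beside it; every axis starts at 0. Wild-type mTBI replicate 1 is the highest point in each panel, and for Cox5b replicates 2 and 3, at 167 and 166 CPM, also lie above all libraries of the other groups.

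Complex V, the ATP synthase, had a median log2 change of 0.31, with 16 of 17 tested members higher and 13 with the groups apart, the largest share of the 5 complexes. The catalytic pair of its head differed little: Atp5b read 881, 878 and 897 CPM in sham, 1058, 914 and 914 in wild-type mTBI and 941, 836 and 915 in the knockout, log2 0.12 (95% interval -0.05 to 0.29), and Atp5a1 had log2 0.11 with 766 ± 13 CPM (SD, n = 3) in sham and 825 ± 56.6 after injury. The injured wild-type libraries were above sham for both, but the knockout values reached both above and below. The rotor subunits differed more. Atp5g3, which gives most of the c ring transcripts, stood at 174.1, 174.0 and 173.7 CPM in sham, 257, 199 and 191 in wild-type mTBI and 186, 164 and 180.2 in the knockout, log2 0.31 (SE 0.10, adjusted p = 0.247). Atp5g2 had log2 0.35 (adjusted p = 0.223), the lowest p in the complex, and Atp5g1 0.30. All 3 genes of the c subunit had every injured wild-type library above every other library. Atp5j2, the f subunit of the membrane part, read 77.1, 80.1 and 79.7 CPM in sham, 136, 89.0 and 88.6 in wild-type mTBI and 88.1, 83.0 and 77.0 in the knockout (log2 0.41, SE 0.14, adjusted p = 0.265 by edgeR, 0.0335 without a count filter and up to 1 in the other settings). Atp5d, the delta subunit of the central stalk, read 156, 161 and 156 CPM in sham, 233, 176 and 176 in wild-type mTBI and 171, 154 and 154 in the knockout (log2 0.31, adjusted p = 0.251), and Atp5c1, the gamma shaft, had 0.20. Atp5s, a coupling factor that is not a subunit of the enzyme proper, was the only member on the lower side, at 15.6, 10.7 and 11.3 CPM after injury against 12.3 to 13.3 in sham (log2 -0.02, adjusted p = 0.961).

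The second comparison sets the injured knockout against injured wild type, and uses the same wild-type mTBI libraries as the first comparison, so its values are not independent of it. No member was called (0 of 83 by edgeR, DESeq2 or voom, against 0.015% of all genes by edgeR, 0.00499% higher and 0.00998% lower), and the adjusted p by edgeR ran from 0.732 to 0.920. At an unadjusted p under 0.05 DESeq2 had 39 members lower and 0 higher (3.52% and 3.25% of all genes), and voom 11 lower and 1 higher (3.20% and 2.66%). In the knockout 80 of 83 members were lower (49.8% of all genes were) and 3 higher (50.2%), with a median log2 change of -0.26 against 0.0012 over all genes. At an unadjusted p under 0.05, 35 members were lower (3.35% of all genes) and 0 higher (3.25%). In 36 members all 3 knockout libraries lay below all 3 wild-type mTBI libraries (4.86% of all genes): 11 of 37 in complex I, 1 of 4 in complex II, 4 of 9 in complex III, 10 of 16 in complex IV and 10 of 17 in complex V. The complex medians were -0.24, -0.19, -0.23, -0.33 and -0.29 in the same order. Without wild-type mTBI replicate 1 the median was -0.081 with 15 members on the higher side (51.9% of all genes), and 36 members had the groups apart, where 8.82% of all genes did.

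Examples by complex follow the same order of libraries. In complex I, Ndufa3, an accessory subunit of the membrane arm, read 61.2, 66.6 and 63.8 CPM in the knockout against 108, 73.1 and 72.5 in injured wild type, a log2 difference of -0.41 (SE 0.13, adjusted p = 0.732 by edgeR). In complex II, Sdhd read 69.9, 70.2 and 69.2 CPM against 93.4, 72.4 and 74.4, log2 -0.20 (SE 0.094). In complex III, Uqcrh read 112, 115 and 104 against 177, 119 and 118, log2 -0.32 (SE 0.14). Cox6a1, with the smallest p of all members here, had log2 -0.35 (SE 0.093), and Cox8a -0.24 (SE 0.078). In complex V, Atp5g1 read 83.5, 93.0 and 89.0 CPM against 135, 102 and 101, log2 -0.35 (SE 0.11). For each of these 6 genes the groups were apart, but wild-type mTBI replicate 1 lay much farther from the knockout than replicates 2 and 3 did. The 3 members that were higher in the knockout were Ndufa4l2 (log2 0.10), Cox6a2 (0.42) and Atp5s (0.06), all with overlapping groups.

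The third comparison, injured knockout minus the libraries labelled sham, showed little difference in any complex. No member was called (0.0699% of all genes were, 0.0499% higher and 0.02% lower) and none had an unadjusted p under 0.05 by edgeR (4.58% of all genes were higher and 2.62% lower at that level), while DESeq2 gave 1 higher (4.52% of all genes) and voom 2 (7.68%) and neither called a member. The members were 53 higher (52.6% of all genes were) and 30 lower (47.4%), with a median log2 change of 0.019 against 0.0099 over all genes, and complex medians of 0.025, 0.015, -0.011, 0.027 and 0.023 from I to V. The 95% interval of the change lay within 0.5 on the log2 scale in either direction for 77 of 83 members, against 24 after wild-type injury and 32 for knockout against wild type. In 6 members all knockout libraries lay above all labelled sham (Ndufa5, Ndufa6, Ndufb5, Cox4i1 and Cox7a2l among them), which is 7.23% of the members against 8.75% of all genes, and in 2 (Ndufa4l2 and Cox5a) all lay below, 2.41% against 8.4%. The first share is near that of all genes and the second is below it. Cox7a2l gave a close example, with 88.1, 87.5 and 87.7 CPM in the knockout against 82.3, 77.7 and 79.5 in sham (log2 0.14, 95% interval -0.19 to 0.46). The member of smallest p was Cox8b, with log2 1.52 and an adjusted p of 0.739, whose knockout values of 0.0523, 1.13 and 0.976 CPM spanned the sham range.

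Subunit mRNAs are short, and the counts of wild-type mTBI replicate 1 were tilted toward short mRNAs over the whole table. The principal mRNA was shorter than 1000 bases in 50 of 83 tested members (median 838 bases) but in only 911 of 15535 tested genes with such an mRNA (median 3008 bases). By complex the median was 652 bases in IV, 838 in V, 908 in I, 1363 in III and 2065.5 in II. This was also the order of the complexes by median change after injury, from largest to smallest. The part of length in the differences between complexes, or between core and other subunits, was not tested. Over those 15535 genes, the log2 CPM above sham in replicate 1 had a Spearman correlation of -0.50 with length, whereas the other 8 libraries gave -0.11 to 0.056. Genes of 1 library are not independent. Over the 83 members it was -0.57, -0.32 and -0.36 in wild-type mTBI replicates 1, 2 and 3 and -0.31 in knockout replicate 2. The remaining libraries gave -0.18 to 0.23 over the members. Its median over all genes declined by length class, from 0.50 below 750 bases and 0.45 from there to 1000 bases, down to 0.14 between 2000 and 3000 bases and -0.27 from 5000 bases on. The members of replicate 1 followed the same order, at 0.64 for the 38 below 750 bases, 0.60 for the next 12, below 1000 bases, 0.57 for 14 below 1500 and 0.37 for 12 below 2000 bases, and in each of these classes lay above all genes of like length, which had 0.50, 0.45, 0.36 and 0.27. The few longer members had 0.25 (4 members from 2000 to below 3000 bases) and 0.47 (3 from 3000 to below 5000). Those 3 were Sdhc, Ndufb2 and Atp5g1, classed by the 1 transcript taken for each, and shorter forms were not looked at. The smallest differences in replicate 1 were those of Uqcrc2 (0.07, mRNA of 1896 bases), Ndufa4l2 (0.13), Cox6a2 (0.14), Sdha (0.18, 2900 bases), Ndufa9 (0.18, 1445 bases) and Atp5a1 (0.22, 2471 bases). In replicates 2 and 3 the class medians of the members below 1500 bases were 0.10 to 0.14 and 0.060 to 0.10, against 0.021 to 0.044 and 0.047 to 0.069 for all genes, and in replicate 3 the members from 750 to below 1000 bases, at 0.060, did not lie above all genes of that length.

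**Figure D4:**
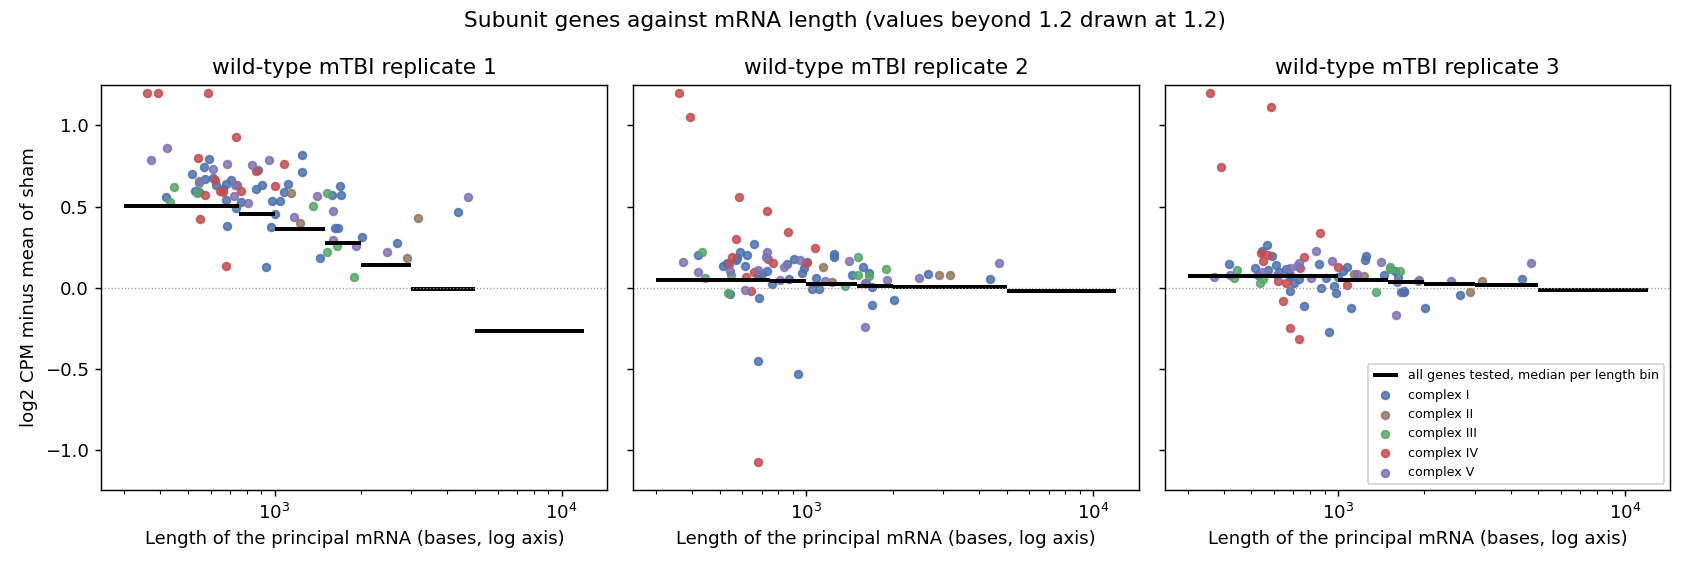
Log2 CPM minus the mean of the libraries labelled sham for each tested member against the length of its principal mRNA (log axis), in the 3 wild-type mTBI libraries, with black bars at the median of all tested genes per length class. In replicate 1 both the members and the bars decline with length, the bars from 0.50 to -0.27, and in replicates 2 and 3 the bars stay near 0.

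A further fit held a smooth length term per library, which used the length of all annotated exons and not that of the principal mRNA. These lengths were equal for some members (419 bases for Ndufa1) and far apart for others (6443 against 544 bases for Atp5l). How far the term removed the relation to principal mRNA length was not tested. In this fit the median log2 change of the members after injury was 0.18, with 79 of 83 higher. That of knockout against wild type was -0.20, with 80 lower. No member was called in either. Cox5b had log2 0.38 (SE 0.085, adjusted p = 0.0775, edgeR), Cox6a1 0.27, Cox6b2 0.96 and Cyc1 0.10 after injury in that fit. The members' median was thus smaller in that fit, and nearly all of them kept to 1 side of 0. What made replicate 1 differ by length was not tested.

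The rest of mitochondrial energy metabolism was read from lists of genes chosen for their function. No gene of any of these lists was called in any comparison. After wild-type injury, the 13 subunits encoded in mitochondrial DNA had a median log2 change of 0.089, with 10 higher, but in replicates 2 and 3 their medians relative to sham were 0.034 and -0.13, where the nuclear subunits had 0.099 and 0.078; the difference between the lists was not tested. By the rule of smallest p, mt-Atp8 and mt-Nd3 were named, both on the lower side, with log2 -0.50 (3.49 ± 0.459 CPM after injury against 4.94 ± 1.67 in sham, SD, n = 3) and -0.72 (8.86 ± 1.68 against 14.5 ± 12.3). The 16 assembly factors of complex I had a median of 0.11 (15 higher), led by Nubpl, which inserts iron-sulfur clusters, at 0.46 (adjusted p = 0.282, edgeR), and Ndufaf8 at 0.42. The 31 tested assembly factors of complexes II to V had 0.11 (26 higher), with Coa6, a copper chaperone of complex IV, at 0.35 and Coa3 at 0.29. The 16 genes of the tricarboxylic acid cycle and pyruvate dehydrogenase had 0.11 (14 higher), with the isocitrate dehydrogenase subunits Idh3b at 0.16 and Idh3g at 0.13.

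Glycolysis, with 15 genes, had a median of 0.058 and held members on both sides: the enolase Eno1 stood at 534 ± 30.8 CPM after injury against 642 ± 18.6 in sham (log2 -0.26, adjusted p = 0.160, edgeR) and the lactate dehydrogenase Ldhb at 362 ± 48.0 against 295 ± 3.47 (0.30). The 13 genes of import, porins and carriers had 0.13 (12 higher), among them the porin Vdac2 at 0.20 and the ADP/ATP carrier Slc25a5 at 0.17. The 4 tested partners outside the naming rule had 0.23, with Atpif1, the inhibitor of the ATP synthase, at 0.28 and Ndufab1, an acyl carrier protein of complex I, at 0.23. The 15 regulators of respiratory genes had 0.021, with the nuclear receptors Esrra at 0.27 (48.6 ± 1.03 CPM against 40.2 ± 0.158, adjusted p = 0.123) and Esrrg at 0.28. In wild-type mTBI replicate 1 the median of each list relative to sham was 0.33 for the mitochondrially encoded subunits, 0.35 and 0.32 for the assembly factors, 0.23 for the tricarboxylic acid cycle, 0.13 for glycolysis, 0.37 for import, 0.56 for the partners outside the naming rule and 0.041 for the regulators. All of these were below the 0.59 of the nuclear subunits in that library. The nuclear subunits have short mRNAs and the lists were not matched for length, so the part of length in this order was not tested. In knockout against wild type all 8 lists had a median below 0: -0.29 for the partners outside the naming rule, -0.11 and -0.13 for the assembly factors, -0.10 for import, -0.098 for the tricarboxylic acid cycle, -0.040 for glycolysis, -0.012 for the regulators and -0.0074 for the mitochondrially encoded subunits.

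**Figure D5:**
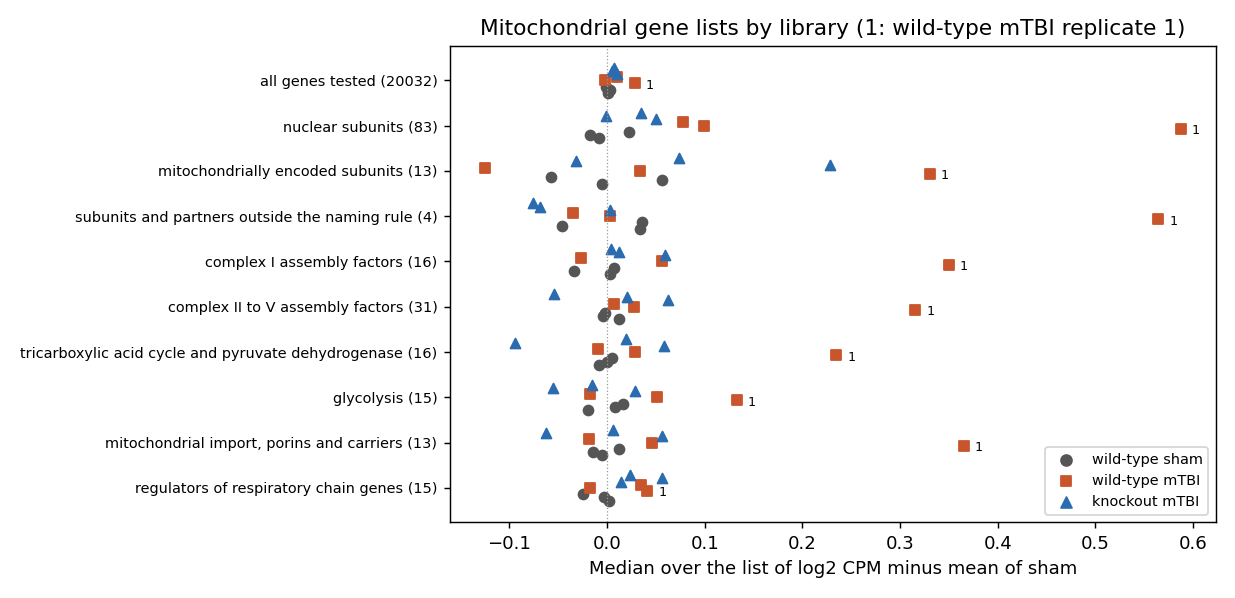
Median over each gene list of log2 CPM minus the mean of the libraries labelled sham, 1 point per library, with the number of tested genes in brackets. Wild-type mTBI replicate 1, marked 1, lies at 0.59 for the nuclear subunits and at 0.041 for the regulators, and the other 8 libraries lie between -0.13 and 0.23 in every list.

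Ndufa1 (chrX:37187588-37191163), Ndufb11 (chrX:20615326-20617619) and Cox7b (chrX:106015700-106022450, all on GRCm38) are the 3 X-linked members. They were looked at apart because wild-type mTBI replicate 3 differed from the other 8 libraries in its sex-linked transcripts, with Xist at 835 CPM and Ddx3y at 0.0498 CPM against at most 0.892 and 49.7 to 58.7 CPM elsewhere. In wild-type mTBI replicates 1, 2 and 3, Ndufa1 read 62.3, 48.6 and 46.8 CPM, Ndufb11 read 92.5, 67.1 and 62.1 CPM and Cox7b read 191, 137 and 135 CPM. Replicate 3 was thus the lowest of the wild-type mTBI libraries for each, close to replicate 2, and above the libraries labelled sham for all 3. Log2 changes after injury were 0.31, 0.31 and 0.32, beside a median of 0.28 over all members.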

How the data were processed

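RNA from sorted tdTomato-positive hippocampal cells was measured in 9 libraries, 3 in each of 3 groups taken from the sample labels, which give 3 mice a group. The deposited table holds raw read counts per gene, which the authors made by counting over exons (Ensembl 98, GRCm38) with featureCounts 2.0.6, per the file headers. Per these headers both mates of a pair were counted, so 58.7% to 60.3% of the nonzero counts are even, strand was not used and reads mapping to several places were left out. Reads were 150 bp pairs from a NovaSeq 6000, and HISAT2, SAMtools, Trim Galore, FastQC and MultiQC stand in the submitters' processing notes. No column of sample values was left unused.

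Symbols and mRNA lengths came from GENCODE M21 (55240 of 55421 genes matched). Genes were filtered with filterByExpr, leaving 20032, scaled by TMM factors and fitted over all 9 libraries with edgeR 4.0.16 (quasi-likelihood F test, two-sided, R 4.3.3, limma 3.58.1). P-values were adjusted by Benjamini and Hochberg over all genes tested, and those with an adjusted p below 0.05 count as called. Log2 CPM per library used a prior count of 2. The script was tested on simulated data with known changes. Members and gene lists were chosen with earlier results of these data known. Named in each complex were the 3 members of smallest p per comparison, the 2 of highest level per length, the redox and catalytic subunits, paralog groups, X-linked and untested members, and of each other list the 2 genes of smallest p after injury. Members that were called in an alternative fit, or singled out for a library, were named after their values were seen. The values of 1 member are not reported here, though it is in the counts and medians.

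Alternatives were RLE factors, no scaling, DESeq2 1.42.0, voom, no filter or a stricter one (1 CPM in 3 libraries), 6 libraries only, a replicate block, a smooth length term (lowess span 0.3), both together, counts divided by 2, the sham libraries summed, each library left out in turn and both replicates 1 of the injured groups left out. The smooth length term used the length of all annotated exons. The counts of members with the groups apart without wild-type mTBI replicate 1 were added after seeing the data. Depth, 36452443 to 39590872 counts per library, puts the floor of 3 counts at about 0.0823 CPM.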

Additional observations from a re-analysis of the deposited data

How the results depend on the processing

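After wild-type injury, 0 members were called by edgeR's quasi-likelihood test, against 4 by DESeq2, 4 by voom, 9 without a count filter, 1 in the fit of the 6 libraries, 3 with both replicates 1 of the injured groups left out, and 0 to 1 with single libraries left out (Cox6b2 without wild-type mTBI replicate 2, Cox8b without knockout replicate 1). Over all genes the same comparison called 102 of 20032 in the design used here, 541 by DESeq2, 722 by voom, 676 of 34825 without a filter and 1 with the sham libraries summed. It called 253 of 19389 in the fit of the 6 libraries and 523 of 20389 with both replicates 1 left out. Without wild-type mTBI replicate 2 it called 82 of 20544 genes, and without knockout replicate 1 252 of 20485. The median log2 change of the members after injury was 0.13 by voom and 0.18 with the length term, and 0.096 to 0.36 with single libraries left out, the lowest without wild-type mTBI replicate 1. That of complex V was 0.097 with both replicates 1 left out and 0.097 to 0.38 with single libraries left out.

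For knockout against injured wild type the median ran from -0.35 to -0.081 with single libraries left out, was -0.10 by voom and -0.20 with the length term, and no setting called a member. For knockout against sham the median was 0.0094 to 0.040 with single libraries left out. There complex III moved to -0.033 with the length term and -0.038 with the replicate block and length term, and -0.024 to 0.035 with single libraries left out, and complex IV to 0.002 and 0.0014, and 0.015 to 0.069. With both replicates 1 left out 1 member, Cox8b, was called there (log2 2.07, adjusted p = 0.0277, edgeR), where 337 of 20389 tested genes were called. In that fit Ndufb8 and Sdha changed sign, to -0.016 and -0.0051. With single libraries left out, Ndufb8 ran from -0.015 (knockout replicate 1) to 0.24, Sdha from -0.005 (knockout replicate 1) to 0.051, Ndufb2 from -0.056 (knockout replicate 2) to 0.24 and Sdhd from -0.042 to 0.0079 (sham replicate 3). The cause of these shifts was not tested.

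With the replicate number as a block the medians were 0.27, -0.25 and 0.018, and no member was called. The labels do not say that the numbers pair the samples. Same-numbered libraries of different groups correlated at -0.0887 to 0.0733 and the others at -0.114 to 0.123. With 3 libraries a group these values cannot decide whether a pairing exists. Depth limits Cox7b2, Cox8c and the minor isoforms of complex IV.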
